A study of Mus musculus with 6 samples.

Results

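The 10 genes described here encode inhibitory receptors of lymphocytes and the B7 family ligands that some of them bind, and they were chosen by symbol from a table of 22063 genes. They are the receptors Pdcd1 (PD-1), Ctla4, Lag3, Havcr2 (TIM-3), Tigit and Btla, and the ligands Cd274 (PD-L1), Pdcd1lg2 (PD-L2), Cd80 and Cd86. All 10 were in the table, and all 10 passed the filter on low counts that left 14505 genes for testing. RNA was sequenced in bulk from 6 bladder tumours of female mice. In an immunocompetent mouse model the tumours arose spontaneously, and every tumour had received an anti-PD-1 antibody, so there was no group without it. By their labels 3 tumours were non-responsive and 3 were responsive. The scoring of response, further detail on how the tumours arose and the strain and age of the mice were not given in the sources used here. No label states whether each tumour came from its own mouse, so the p-values below reflect only sample-to-sample spread, some of which may be technical.

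PD-1 and CTLA-4 appear on T cells after activation and restrain them. PD-1 recruits phosphatases when it meets PD-L1 or PD-L2, and CTLA-4 competes with the costimulatory receptor CD28 for CD80 and CD86 on antigen-presenting cells. LAG-3, TIM-3 and TIGIT add further inhibition in chronically stimulated T cells, and BTLA, found on B and T cells, binds the TNF receptor family member HVEM. PD-L1 is carried by macrophages, dendritic cells and many tumour cells and is induced by interferon gamma, while PD-L2 is largely a product of dendritic cells and macrophages. TIM-3 is also made by myeloid cells, so a transcript measured in whole tissue does not name the cell it came from. In bulk tumour RNA, fewer cells of a type and less RNA per cell cannot be told apart.

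The genes for PD-L1 and PD-L2 are neighbours on mouse chromosome 19 (mm10). Cd274 lies at 29367455 to 29388095 and Pdcd1lg2 at 29410919 to 29471161, both on the plus strand and 22823 bases apart. Pdcd1 lies on chromosome 1 at 94038305 to 94052553, on the minus strand. Both ligand genes overlap an annotated antisense gene, and the counting's strand setting was not given in the sources used here. Ctla4 overlaps a ribosomal protein pseudogene on its own strand, which no strand setting separates. Reads of these partners could therefore have been counted with the genes they overlap. RefSeq (GRCm38.p6) gave a start region for 8 of the 10 genes. The 250 bases before the start are shown for the PD-1 receptor and its ligands, the target of the antibody and its partners, with each GGAAA (the core bound by NFAT factors, either strand) in capitals, 5′ to 3′.
Pdcd1 (chr1:94052554-94052803, minus strand): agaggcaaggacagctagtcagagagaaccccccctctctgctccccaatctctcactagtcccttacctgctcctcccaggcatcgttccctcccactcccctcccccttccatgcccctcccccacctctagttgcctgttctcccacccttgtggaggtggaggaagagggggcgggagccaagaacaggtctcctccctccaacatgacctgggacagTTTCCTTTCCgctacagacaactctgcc
Cd274 (chr19:29367188-29367437, plus strand): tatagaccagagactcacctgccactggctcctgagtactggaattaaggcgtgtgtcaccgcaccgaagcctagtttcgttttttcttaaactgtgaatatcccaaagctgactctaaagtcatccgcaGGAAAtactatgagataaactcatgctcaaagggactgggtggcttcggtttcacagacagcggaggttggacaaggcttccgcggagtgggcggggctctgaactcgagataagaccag
Pdcd1lg2 (chr19:29410669-29410918, plus strand): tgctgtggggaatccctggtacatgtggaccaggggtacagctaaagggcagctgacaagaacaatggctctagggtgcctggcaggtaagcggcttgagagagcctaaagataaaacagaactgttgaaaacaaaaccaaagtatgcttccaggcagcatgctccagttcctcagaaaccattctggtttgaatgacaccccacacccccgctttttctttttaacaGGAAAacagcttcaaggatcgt
The Pdcd1 stretch holds 2 copies of this core side by side, and the ligand genes hold 1 copy each. Of the 8 genes with a start region, 5 held it, against 55.6% of all 32851 start regions of the same length, so the share is near that of the background. The core of interferon regulatory factor sites, GAAA repeated on the same strand after a gap of 2 bases, was in 0 of the 8 windows (2.98% of all windows), as was the box TATAAA (12.4%). Both strands were searched, GGAAA may overlap the interferon regulatory factor core, and a match is a description of letters only.

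Total counts were 15046180 to 23917398 per tumour. A value of 3 counts, an approximate upper confidence limit where 0 was counted, equalled 0.124 to 0.199 CPM (counts scaled to a common TMM library size). That limit covers counting error only. The lowest count of any of the 10 genes was 10, for Pdcd1lg2 in responsive replicate 2, so each gene was detected in every tumour. Mitochondrial genes took 3.42 to 8.08% of the counts in non-responsive and 4.77 to 5.37% in responsive tumours. Bladder lining markers were present in each tumour, with Krt5 at 1088 to 8266 CPM and Upk2 at 7.87 to 199 CPM. No gene in the table passed the edgeR quasi-likelihood test after Benjamini-Hochberg adjustment (0 of 14505, 0%, at 5%), while 985 genes higher and 840 genes lower in non-responsive tumours had an unadjusted p under 0.05 and DESeq2 called 444.

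Setting the non-responsive against the responsive tumours addresses which transcripts differ with resistance to PD-1 blockade. Every one of the 10 checkpoint genes had a higher mean in non-responsive tumours, by 1.52-fold (Cd80) to 6.34-fold (Pdcd1lg2), with a median log2 difference of 1.40 against 0.01 over all genes tested, of which 51% lay above 0. None of the 10 passed the edgeR test over all genes (smallest adjusted p = 0.364). An unadjusted p under 0.05 was found for 5 of 10 (Cd274, Pdcd1lg2, Cd86, Ctla4 and Pdcd1), all higher, against 6.79% of all genes that were higher and 5.79% that were lower at this level. The 3 non-responsive values lay above the 3 responsive values without overlap for 5 of 10 genes (Pdcd1, Cd274, Pdcd1lg2, Cd80 and Btla), against 9.58% of all genes. One tumour, non-responsive replicate 2, held the highest value of all 10 genes, against 23.4% of all genes. Without it the median log2 difference was 0.54, all 10 genes still lay above 0, and 0 of 10 had an unadjusted p under 0.05 by edgeR.

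**Figure D1:**
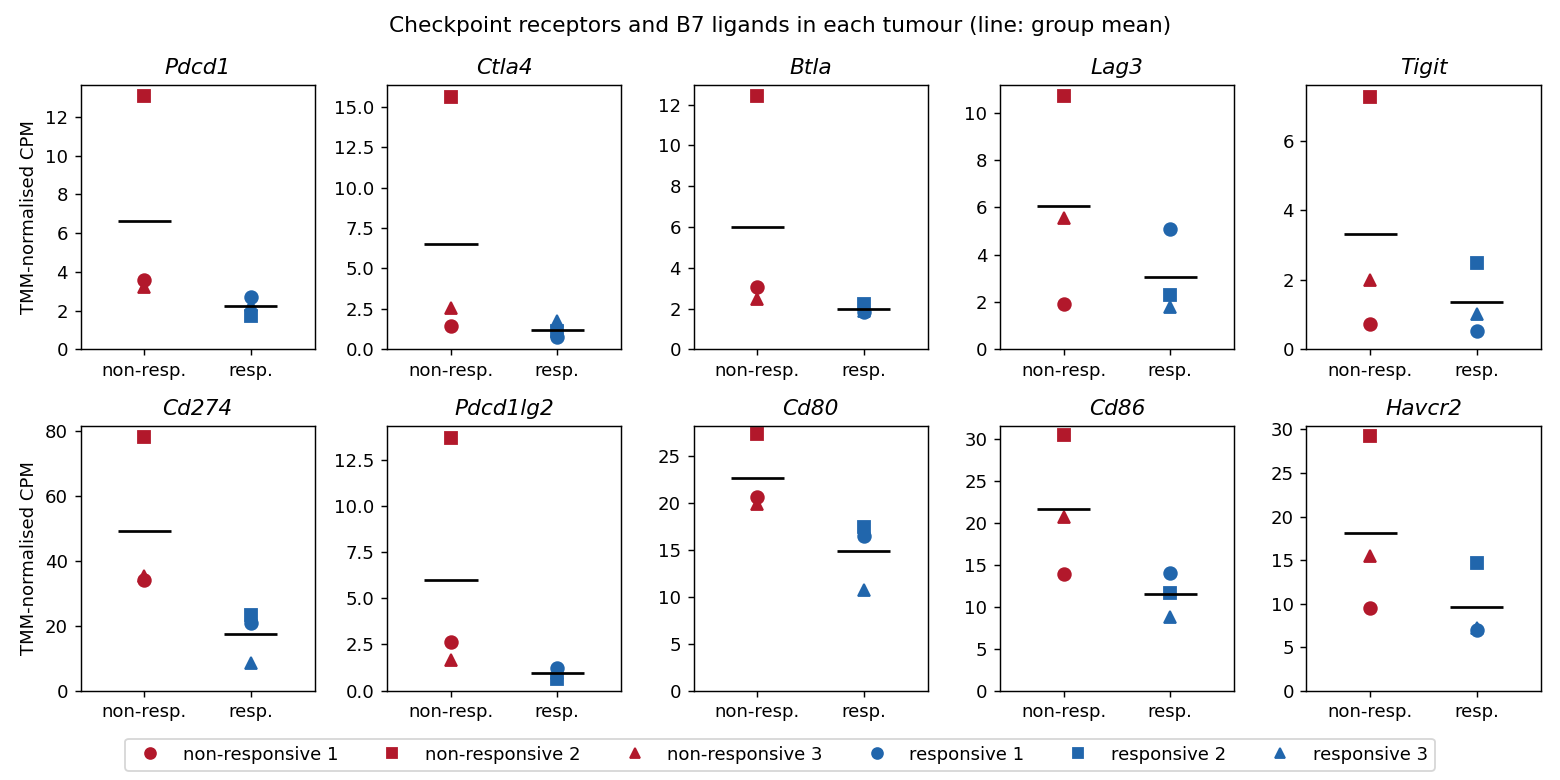
TMM-normalised CPM of each of the 10 genes (1 panel per gene, vertical axis from 0) in the 3 non-responsive (red) and 3 responsive (blue) tumours, with the group mean as a line and the symbol giving the replicate number. Non-responsive replicate 2 is the highest point in every panel, and the groups are apart in the panels of Pdcd1, Cd274, Pdcd1lg2, Cd80 and Btla.

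Pdcd1, the receptor that the antibody blocks, measured 3.58, 13.1 and 3.20 CPM in replicates 1, 2 and 3 of the non-responsive group and 2.71, 1.71 and 2.31 CPM in those of the responsive group, the order kept for every gene below. The groups did not overlap, but replicates 1 and 3 of the non-responsive group lay just above the responsive range. The mean was 6.62 ± 5.60 against 2.24 ± 0.502 CPM (SD, n = 3 per group), a log2 difference of 1.55 ± 0.63 (SE; edgeR adjusted p = 0.389). Without non-responsive replicate 2 the fold was 1.52.

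Cd274, the gene of its broadly expressed ligand PD-L1, was at 34.1, 78.0 and 35.2 CPM in the non-responsive tumours and at 20.8, 23.3 and 8.65 CPM in the responsive tumours. All non-responsive values were above all responsive ones, and replicates 1 and 3 alone were 1.94 and 2.00 times the responsive mean. The log2 difference was 1.48 ± 0.48 (edgeR unadjusted p = 0.0169, adjusted p = 0.364), and 1.00 without non-responsive replicate 2 (unadjusted p = 0.0602). Among the 10 genes Cd274 had the smallest edgeR p, and 668 of the 14505 genes tested had a p at or below it.

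Pdcd1lg2, the gene of the other PD-1 ligand, was counted 40, 233 and 36 times in non-responsive tumours and 27, 10 and 23 times in responsive ones. On the CPM scale these were 2.65, 13.7 and 1.67 against 1.22, 0.635 and 0.947. The groups did not overlap, and the non-responsive mean of 5.99 ± 6.66 CPM (SD, n = 3) rested on replicate 2, which was 5.15 times the next highest tumour. Its log2 difference of 2.66 ± 0.87 was the largest of the 10 (edgeR adjusted p = 0.364), and it was 1.21 without that tumour. DESeq2 called Pdcd1lg2 and none of the other 9 genes (DESeq2 adjusted p = 0.0495; 0.0495 to 0.469 over the other tests, scalings, filters and the block tried, and up to 0.632 by edgeR when a tumour was left out), where DESeq2 called 1.49% of all genes higher. That call was lost when non-responsive replicate 2 or any single responsive tumour was left out.

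Ctla4, the inhibitory receptor for CD80 and CD86, was at 1.46, 15.6 and 2.55 CPM in non-responsive and 0.768, 1.14 and 1.77 CPM in responsive replicates 1, 2 and 3. Non-responsive replicate 1 lay below responsive replicate 3, so the groups overlapped, and replicate 2 was 6.12 times the next highest tumour. That is the widest gap of this kind among the 10 genes. The log2 difference was 2.40 ± 0.94 (edgeR adjusted p = 0.379) and was 0.73 without that tumour.

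The genes of the B7 ligands shared by CTLA-4 and CD28 on antigen-presenting cells had log2 differences below 1. Cd80 was at 20.6, 27.3 and 19.9 CPM in the non-responsive tumours and at 16.5, 17.4 and 10.8 CPM in the responsive tumours. These groups did not overlap, and non-responsive replicate 2 was 1.33 times the next highest tumour, with means of 22.6 ± 4.09 against 14.9 ± 3.62 CPM (SD, n = 3). The log2 difference was 0.60 ± 0.27 (edgeR adjusted p = 0.403), and 0.46 without non-responsive replicate 2. Cd86 was at 13.9, 30.4 and 20.7 CPM against 14.0, 11.6 and 8.78 CPM, where non-responsive replicate 1 and responsive replicate 1 nearly coincided and the groups therefore overlapped. Its log2 difference was 0.92 ± 0.34 (edgeR adjusted p = 0.372), and 0.61 without non-responsive replicate 2.

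Btla, the receptor for HVEM, measured 3.05, 12.4 and 2.45 CPM in the non-responsive tumours and at 1.85, 2.22 and 1.90 CPM in the responsive tumours. The groups did not overlap, although non-responsive replicate 3 and responsive replicate 2 were close. The log2 difference was 1.58 ± 0.68 (edgeR adjusted p = 0.398) with all tumours and 0.48 without non-responsive replicate 2.

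The other exhaustion-associated receptors showed overlapping groups. Lag3, which binds MHC class II, was at 1.92, 10.7 and 5.56 CPM against 5.11, 2.28 and 1.77 CPM, so that responsive replicate 1 exceeded non-responsive replicate 1. Havcr2 was at 9.54, 29.3 and 15.4 CPM against 6.96, 14.7 and 7.17 CPM. Tigit, which competes with CD226 for its ligands, was at 0.729, 7.27 and 1.99 CPM against 0.542, 2.48 and 1.03 CPM. In each of the 3, non-responsive replicate 1 fell inside the responsive range. The log2 differences were 0.99 ± 0.70, 0.92 ± 0.49 and 1.31 ± 0.94 for Lag3, Havcr2 and Tigit (edgeR adjusted p = 0.535, 0.451 and 0.536). Without non-responsive replicate 2 they were 0.31, 0.41 and 0.07.

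**Figure D2:**
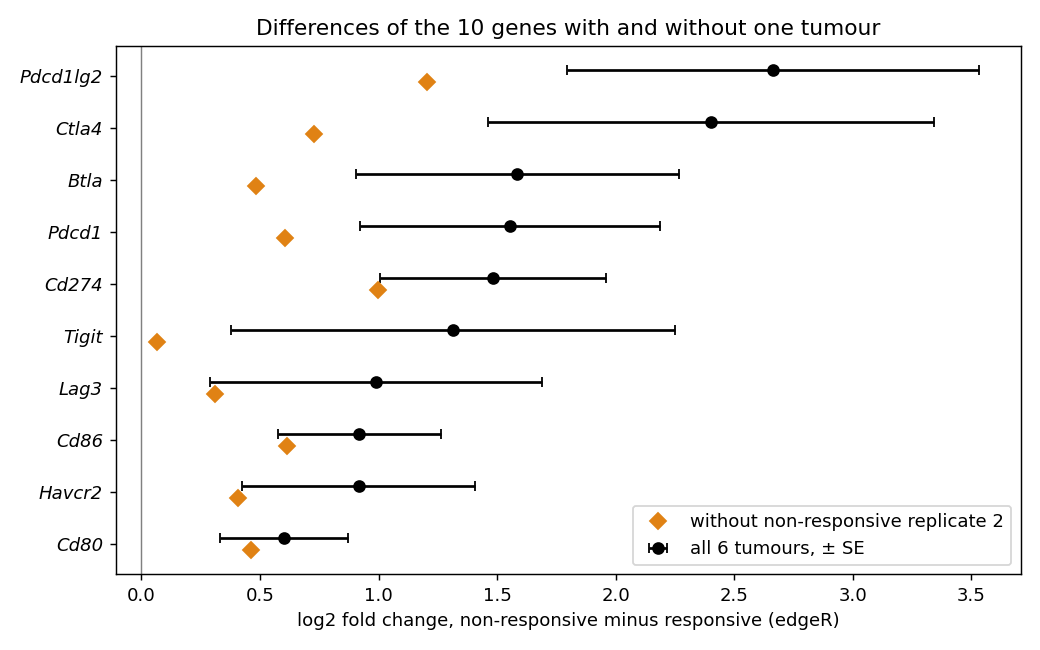
Log2 fold change of each gene (horizontal axis, non-responsive minus responsive, edgeR) over all 6 tumours with its standard error (black) and without non-responsive replicate 2 (orange, no error drawn). Every orange point lies nearer 0 than its black point, from 0.07 for Tigit to 1.21 for Pdcd1lg2, and all stay above 0.

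Apart from non-responsive replicate 2, which was highest throughout, the rank of a tumour varied from gene to gene. Non-responsive replicate 3 was above all responsive tumours for 9 genes (the exception was Tigit), and non-responsive replicate 1 for 5. For these tumours the matching shares over all genes were not computed, so the counts are a description only. For the other 5 (Ctla4, Cd86, Lag3, Havcr2 and Tigit) non-responsive replicate 1 lay inside the responsive range. Responsive replicates 1 and 3 each held the lowest value of 4 genes and responsive replicate 2 of the remaining 2.

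Levels of different genes were compared on the FPKM scale, which divides by gene length and library size. The antigen-presenting cell and ligand genes Cd80, Cd274 and Cd86 and the receptor gene Havcr2 came first, with median FPKM of 8.02, 7.20, 5.04 and 4.11 over the 6 tumours. Lag3, Tigit and Pdcd1 followed at 1.76, 1.74 and 1.48, and Pdcd1lg2, Ctla4 and Btla were lowest at 0.898, 0.797 and 0.774. Havcr2 was above Lag3 in 6 of 6 tumours, the only neighbouring pair in this order with no exception. Cd80 was above Cd274 in 4 tumours, and Lag3 was above Tigit, Tigit above Pdcd1 and Ctla4 above Btla in 3 tumours each, so these neighbours were not separated. Pdcd1lg2 was above Ctla4 in 2 of 6 tumours, so the order of their medians was reversed in most tumours. In non-responsive replicate 2 Ctla4 reached 10.3 FPKM and Pdcd1lg2 9.38 FPKM, against at most 1.43 and 1.41 FPKM in any other tumour.

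**Figure D3:**
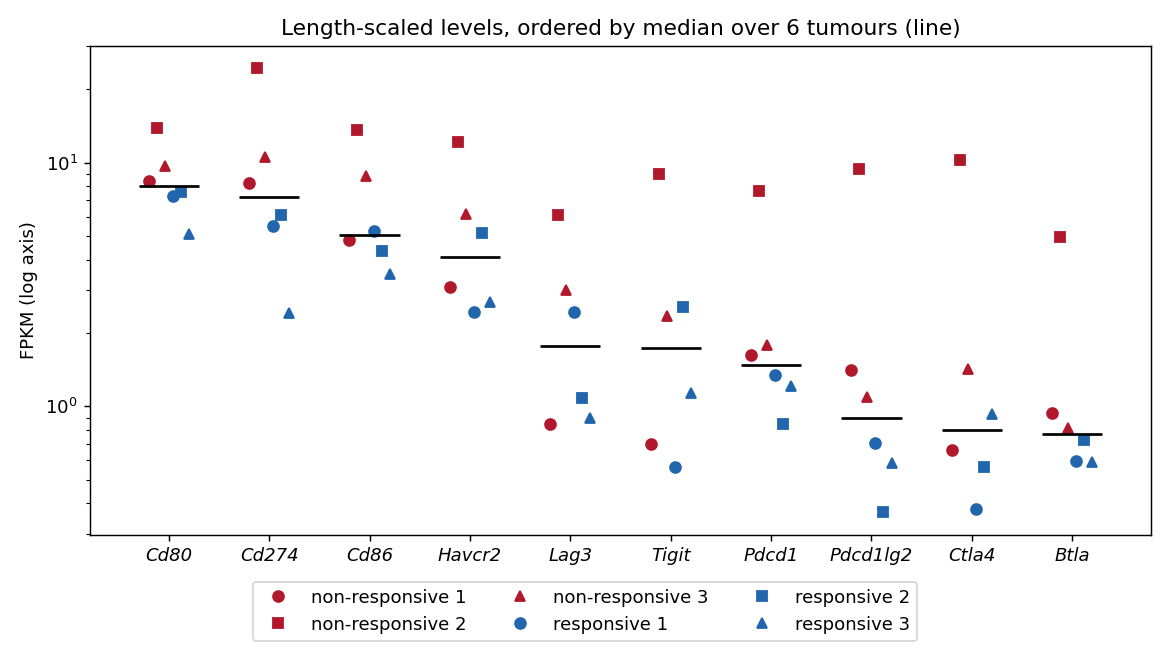
FPKM of the 10 genes (logarithmic vertical axis) in each tumour, ordered by the median over 6 tumours (line), with non-responsive tumours in red and responsive tumours in blue. Cd80, Cd274, Cd86 and Havcr2 have medians of 4.11 or more and the other 6 genes have medians of 1.76 or less.

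Ratios of FPKM within a tumour compare ligands that share a receptor or receptors that share ligands, and they are given as values without a test. The PD-L1 to PD-L2 ratio was 5.85, 2.60 and 9.67 in non-responsive tumours against 7.77, 16.7 and 4.16 in responsive ones. It was lowest in non-responsive replicate 2, where both ligands were highest, and the groups overlapped. The Cd86 to Cd80 ratio was 0.573, 0.975 and 0.910 against 0.725, 0.572 and 0.687, so Cd86 was below Cd80 in every tumour. Ctla4 to Cd28, its costimulatory counterpart, was 1.90, 2.96 and 2.69 against 1.06, 1.84 and 4.21, again with overlapping groups.

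Genes that mark the cells known to carry these molecules also had higher means in the non-responsive tumours. All 8 T cell markers (Cd3d, Cd3e, Cd3g, Cd2, Cd5, Cd6, Lat and Lck) did, and their summed level was 30.0, 126 and 24.1 CPM there against 17.6 to 25.5 CPM in the responsive group. For 7 of 8 macrophage and monocyte markers (Cd14 was the exception) the mean was also higher, with sums of 1613 to 2939 against 927 to 2109 CPM. Of 8 dendritic cell markers 7 were higher (Cd209a was the exception), with sums of 223 to 323 against 166 to 272 CPM, and all 5 B cell markers were higher, with sums of 11.4, 52.3 and 13.1 against 16.6, 10.3 and 10.4 CPM. The 4 T cell subset genes Cd4, Cd8a, Cd8b1 and Foxp3 summed to 12.4, 74.2 and 16.4 against 8.68 to 16.3 CPM. In the T cell, T cell subset and B cell lists non-responsive replicate 2 stood far above the others, and the other tumours of its group lay within or near the responsive range. The 5 fibroblast and endothelial markers all had higher means, but the groups were apart for 2 of them, the collagen genes Col1a1 and Col1a2, and overlapped for Pdgfra and the endothelial genes Pecam1 and Cdh5. Groups were also apart and higher for 1 of 8 T cell, 2 of 4 T cell subset and 1 of 8 macrophage and monocyte markers. The same held for 2 of 8 dendritic and 0 of 5 B cell markers, against 9.58% of all genes. Of 8 urothelial and epithelial markers 5 were lower, the uroplakin genes Upk1a, Upk1b, Upk2 and Upk3a with log2 differences of -3.42 to -2.37, while the summed level was 1670 to 9476 against 3762 to 4184 CPM. The sums lean on abundant genes, such as Lyz2 (macrophage list, 563 to 2023 CPM) and Fscn1 (dendritic list, 116 to 211 CPM). Krt5 (1088 to 8266 CPM) weighs most in the epithelial sum. No marker on these lists was at 0 in any tumour, and none passed edgeR after adjustment. DESeq2 called Fcgr1, Col1a1 and Col1a2 higher (DESeq2 adjusted p = 0.0459, 0.00186 and 0.00118). It called Upk1a, Upk2 and Upk3a lower (DESeq2 adjusted p = 0.0453, 0.0123 and 0.00159). The part of the dendritic, B, stromal and epithelial cells in the differences of the 10 genes was not tested.

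Each of the 10 genes was therefore set against its markers within each tumour, as its log2 CPM minus the mean log2 CPM of the list. Relative to the 8 T cell markers the lymphocyte receptors gave values for non-responsive minus responsive of 0.21 for Pdcd1, 0.13 for Btla, -0.10 for Tigit, -0.22 for Lag3 and 0.64 for Ctla4 (exact permutation p = 0.6, 0.3, 0.8, 0.6 and 0.2). All 5 overlapped between groups. Pdcd1 relative to T cell markers was 0.10, -0.16 and 0.15 in non-responsive and 0.37, -0.73 and -0.16 in responsive replicates 1, 2 and 3. Non-responsive replicate 2, which had the highest Pdcd1, was thus not the highest per T cell marker. Of the 10 ratios, those of Cd274, Pdcd1lg2 and Ctla4 kept their sign in every setting tried, and each of the other 7 turned in at least 1 setting that changed the marker or left out a tumour.

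Cd274 alone had ratios that did not overlap. Relative to the 8 macrophage and monocyte markers it was at -1.91, -1.06 and -1.79 in the non-responsive group and at -2.39, -2.39 and -2.78 in the responsive tumours, a difference of 0.93 on the log2 scale (two-sided exact permutation p = 0.1, the smallest that 3 against 3 can give; 0.667 adjusted over the 10 ratios). Leaving out a tumour gave differences of 0.67 (without non-responsive replicate 2) to 1.09. Relative to Ptprc, which encodes the leukocyte surface protein CD45, the difference was 0.18 and the groups overlapped. Pdcd1lg2 relative to the macrophage markers differed by 1.46, Cd86 by 0.31, Havcr2 by 0.29 and Cd80 by 0.06 (exact permutation p = 0.2, 0.4, 0.5 and 0.6), and each of these overlapped. Among these 5 genes Cd80 held the narrowest range, from -2.63 to -2.58 in the non-responsive and -2.80 to -2.47 in the responsive tumours.

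**Figure D4:**
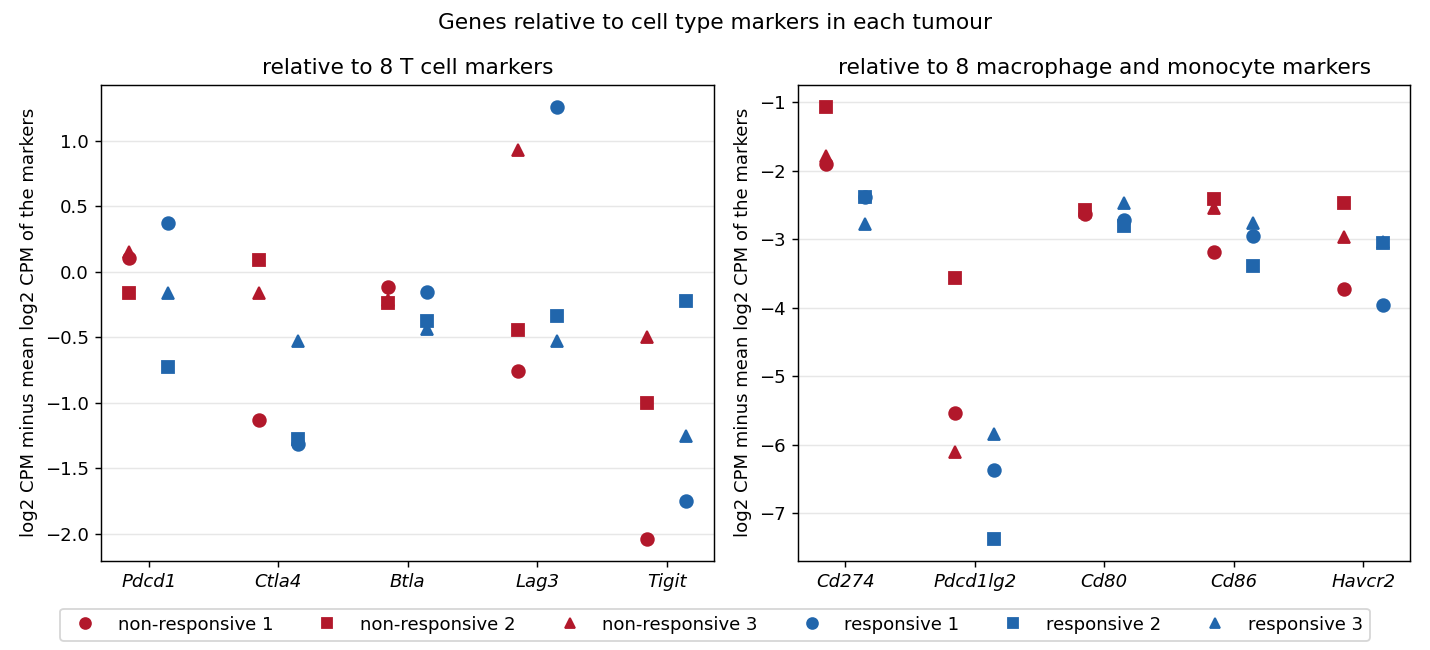
Log2 CPM of each gene minus the mean log2 CPM of 8 T cell markers (left) or 8 macrophage and monocyte markers (right), 1 point per tumour, non-responsive in red and responsive in blue. The groups are apart for Cd274 (at least -1.91 against at most -2.39) and overlap for the other 9 genes.

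Across the 6 tumours the level of each gene was related to the mean log2 CPM of the same marker list, as 10 relations. Cd80 followed the macrophage markers (Pearson r = 0.972, exact permutation p = 0.00278, adjusted p = 0.0139; Spearman rho = 0.943, exact permutation p = 0.0167, adjusted p = 0.0833). Without the 2 tumours farthest from the median of the markers, non-responsive replicate 2 and responsive replicate 3, r was 0.826 over 4 tumours. Cd274 followed the same markers (Pearson r = 0.947, exact permutation p = 0.00556, adjusted p = 0.0185; Spearman rho = 0.829, exact permutation p = 0.0583, adjusted p = 0.194), with r of 0.747 without those 2 tumours.

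Btla followed the T cell markers (Pearson r = 0.993, exact permutation p = 0.00278, adjusted p = 0.0139; Spearman rho = 0.943, exact permutation p = 0.0167, adjusted p = 0.0833), and r was 0.962 without non-responsive replicate 2 and responsive replicate 1. The other 7 relations had an adjusted permutation p of 0.059 or more for Pearson's r. For Ctla4 and Pdcd1 r was 0.952 and 0.926 over 6 tumours and -0.31 and 0.52 without the same 2 tumours, so these rested on them. Non-responsive replicate 2 lay far above the other tumours on the T cell markers, and within the 3 tumours of a group no r was computed. Over 6 tumours r with the mean of 8 dendritic cell markers exceeded that with T cell markers for Pdcd1 (0.945) and Lag3 (0.796 against 0.642). It was lower for Btla (0.967), Ctla4 (0.890) and Tigit (0.765). It exceeded r with macrophage markers for Pdcd1lg2 (0.920 against 0.618), Cd86 (0.834 against 0.807) and Havcr2 (0.788 against 0.732). For Cd274 (0.794) and Cd80 (0.746) it was lower than r with macrophage markers. Without non-responsive replicate 2 Pdcd1lg2 had r of 0.360 with macrophage and 0.419 with dendritic cell markers. Without non-responsive replicate 2 Btla had r of 0.871 with T cell and 0.272 with dendritic cell markers. B cell markers were not tried, so these relations do not name a cell type.

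**Figure D5:**
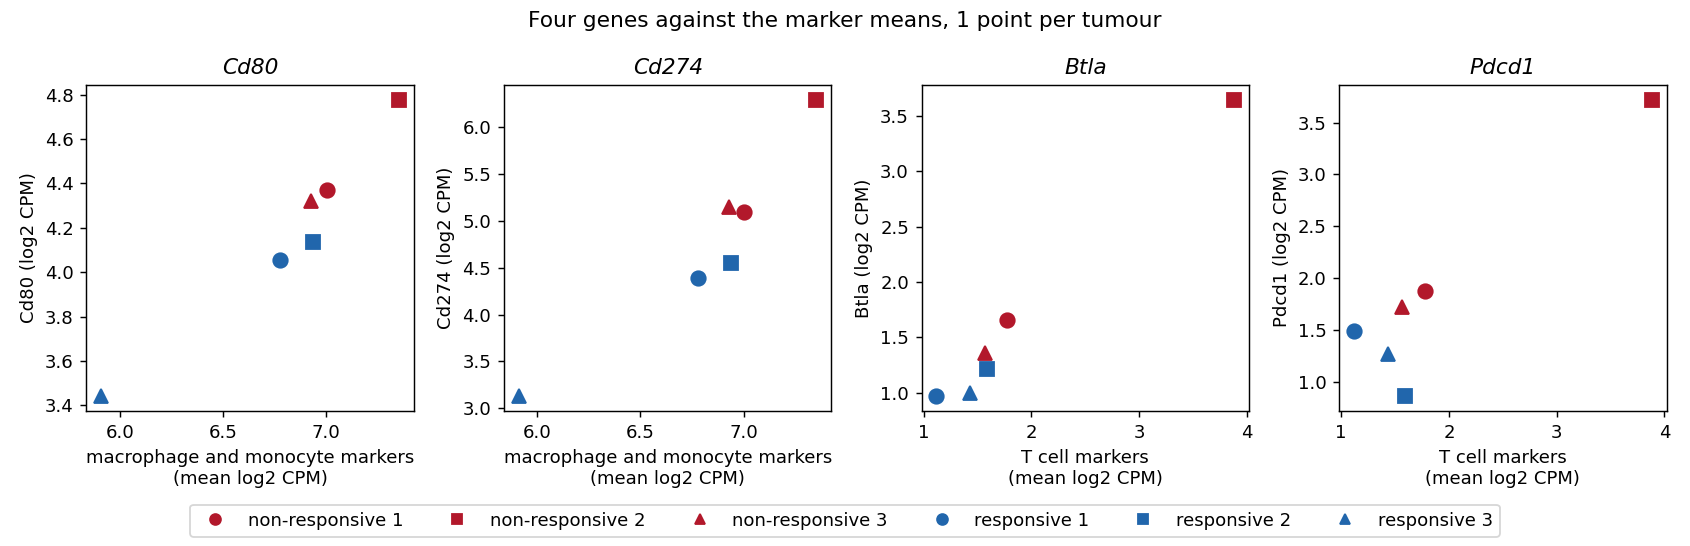
Log2 CPM of Cd80 and Cd274 against the mean log2 CPM of 8 macrophage and monocyte markers, and of Btla and Pdcd1 against 8 T cell markers, 1 point per tumour. Cd80 and Btla lie close to a line (r = 0.972 and 0.993), and Pdcd1 varies among the 5 tumours with low T cell markers.

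For each of the 10 genes the 3 genes of most similar pattern were taken as those of highest Pearson r over the 6 tumours among 12966 genes, as a description. For Cd274 these were the protease gene Ctss (r = 0.998), Emb (0.998) and Cd80 (0.995), and for Cd80 they were Emb (0.999), Cd274 (0.995) and Hcfc2 (0.994). Pdcd1 was most like Pdcd1lg2 (0.993), the activation marker Cd69 (0.992) and Mrtfa (0.989). Receptor and ligand thus ranked the 6 tumours in the same order (Spearman rho = 1), and r was 0.973 over the 5 tumours without non-responsive replicate 2. Btla was most like P2ry10 (0.995), Il2rb (0.989, the interleukin 2 receptor beta chain) and Slc8a1 (0.988). Tigit was most like Tnfrsf14 (0.993, the gene of HVEM), Pip5k1c (0.987) and Nek7 (0.985). Ctla4 was most like Prkacb (0.999), Tmem170b (0.998) and Alyref2 (0.997). Cd86 was closest to Septin2 (0.998), St8sia4 (0.996) and Hltf (0.995), and Lag3 to Fyn (0.998), Mtf2 (0.997) and Ccm2l (0.995). Havcr2 was closest to Tlr4 (0.991), Tcirg1 (0.985) and Cdk17 (0.985), and Pdcd1lg2 to Atxn1 (0.994), Pdcd1 (0.993) and Cst7 (0.986). Ctss, the gene closest to Cd274, differed by 1.48 on the log2 scale, as Cd274 did. Such values are the extremes of many genes over few tumours that share their libraries.

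The costimulatory partners and counter-receptors of these molecules were mixed. Of 20 listed, 17 were tested, 12 lay above and 5 below 0, the median log2 difference was 0.43, and 0 passed edgeR in either direction. Leaving out non-responsive replicate 2 gave a median of 0.25, and leaving out responsive replicate 1 gave 0.83. Cd28, which gives T cells their costimulatory signal, was at 1.72, 13.3 and 2.13 CPM in non-responsive and 1.63, 1.40 and 0.948 CPM in responsive tumours. Again replicate 2 stood far above the others, and the log2 difference was 2.11 ± 0.86 (edgeR adjusted p = 0.389). The costimulatory receptor Icos and the TIGIT relative Cd96 differed by 1.92 and 1.87, while Nectin2 (a ligand of TIGIT and CD226) and Lgals3 (a galectin that LAG-3 can bind) differed by -0.51 and -0.42. Cd160, Pvrig and Clec4g were under the filter.

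Other B7 and immunoglobulin family checkpoint genes had a median log2 difference of 0.46, with 11 of 13 tested above 0 and 0 called by edgeR in either direction. Its median was 0.26 with non-responsive replicate 2 left out and 0.92 with responsive replicate 2 left out. Lair1, an inhibitory collagen receptor of leukocytes, was at 23.4, 40.0 and 28.1 CPM in the non-responsive tumours and at 13.4, 17.5 and 6.88 CPM in the responsive tumours. Its groups did not overlap, with a log2 difference of 1.28 ± 0.39 (edgeR adjusted p = 0.358). Sirpa, the myeloid receptor for CD47, and Cd200 differed by 0.94 ± 0.34 and 0.89 ± 0.33. The lower members were Vtcn1 (B7-H4, an epithelial B7 protein) at -0.86 ± 0.67 and Btnl2 at -1.04 ± 0.91.

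Genes of inhibitory signalling and of the surface stability of these proteins had a median of 0.28, with 12 of 15 tested above 0 and 0 called by edgeR in either direction. Cblb, a ubiquitin ligase that restrains T cell activation, was at 37.4, 38.3 and 38.9 CPM in the non-responsive tumours against 20.6, 20.3 and 16.1 CPM in the responsive tumours. The groups were far apart and replicate 2 did not stand out, with a log2 difference of 1.01 ± 0.19 (edgeR unadjusted p = 0.00106, adjusted p = 0.35). It was the 1 gene of 56 tested on these 4 lists that DESeq2 called, against 444 of all 14505 genes. Sh2d2a, a T cell adaptor, and Cbl differed by 2.21 and 0.64, and Bag6, Csk and Cmtm4 by -0.44, -0.22 and -0.36. Cmtm6, which stabilises PD-L1 at the cell surface, differed by 0.28 ± 0.19.

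A list of interferon gamma pathway and related signalling genes, among them Stat3, Socs3, Irf9 and Nlrc5, had a median of 0.30. Of these, 10 of 11 tested lay above 0 and 0 were called by edgeR in either direction. Without non-responsive replicate 2 the median was 0.09, with 8 of 11 above 0. Jak2, a kinase of the interferon gamma receptor, was at 97.5, 155 and 94.1 CPM against 44.3, 82.3 and 69.2 CPM without overlap, a log2 difference of 0.83 ± 0.31 (edgeR adjusted p = 0.372). Nlrc5, an activator of MHC class I genes, and Irf1 differed by 0.99 ± 0.43 and 0.51 ± 0.28. Irf9, the 1 member of this list below 0, differed by -0.06 ± 0.22. Ifng itself was under the filter, at 6, 22 and 12 counts in non-responsive tumours and 0, 5 and 2 counts in responsive ones.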

How the data were processed

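RNA from 6 bladder tumours was sequenced. The build named in the submitters' processing notes is mm10. Aligner, counter, strand setting and annotation were not given in the sources used here. Estimated counts and FPKM were what the authors deposited, per the file headers, and 8.19 to 9.99% of the expected counts per tumour were not whole. Counts were rounded and tested with edgeR 4.0.16 in R 4.3.3 (TMM, default expression filter, robust quasi-likelihood test, Benjamini-Hochberg adjustment over all genes, threshold 5%). A standard error is the log2 difference divided by the square root of the F statistic. Ratios to markers used log2 CPM with a prior count of 2 and two-sided exact permutation tests. The 10 genes and all lists were chosen with earlier results of these data known. Named genes were the 10, up to 3 per direction of smallest p from each list, for each of the 10 the 3 genes of highest r (average log2 CPM from 1 upward, without placeholder gene models and antigen receptor segments), and the markers. Cmtm6, Ifng and Ptprc were added after their values were seen, and 1 gene that the rule names is not reported here. Alternatives were DESeq2 1.42.0, limma 3.58.1 (voom, or FPKM of at least 1 in 3 tumours with a pseudocount of 1 or 0.1), other scalings and filters, a block for the replicate number, and omission of each tumour. DESeq2 without each tumour and ratios to Ptprc were chosen after seeing the data. All 6 libraries differed beyond counting noise (smallest chi-square over its degrees of freedom 75.7). Coordinates come from GENCODE mouse release 21 (21973 of 22063 identifiers matched). The edgeR script was first checked on simulated counts.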

Additional observations from a re-analysis of the deposited data

How the results depend on the processing

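The edgeR count of genes called was 0 under both other scalings, both other filters, the replicate block and each omission of a tumour, and limma called 0 on voom weights and on both FPKM pseudocounts. DESeq2 called 444 genes (216 higher, 228 lower), and 1985, 418 and 163 without non-responsive replicates 1, 2 and 3 and 435, 286 and 191 without responsive replicates 1, 2 and 3. Of the 10 checkpoint genes DESeq2 called 1, and 0 to 4 when a tumour was left out (4 without non-responsive replicate 1). Of the 56 pathway genes tested DESeq2 called 1, against 444 of all 14505 genes, and 0 to 11 when a tumour was left out. Without non-responsive replicate 1 it called 11 of 59 pathway genes, against 1985 of all 14918. Without responsive replicate 2 it called 3 of 59, against 286 of all 14915. The cause of the difference between the tools was not tested. All 10 log2 differences stayed above 0 in every setting in which the gene was tested. The stricter filter of 5 CPM in 3 tumours left 4 of the 10 and the FPKM filter left 8.

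The number of ratios to markers without overlap was 1 with all tumours, 0 with Ptprc as the marker, and 1 to 4 when a tumour was left out. With 3 against 3 a ratio without overlap has an exact permutation p of 0.1, so 1 of 10 is no more than shuffled labels give on average. With a tumour left out, groups are apart by chance more often still. With Ptprc the ratio differences turned to -0.071 (Pdcd1), -0.69 (Cd80), -0.44 (Cd86), -0.46 (Havcr2) and -0.15 (Btla). With Cd3e or Csf1r alone they turned to -0.041 for Cd80 and 0.057 for Tigit. Leaving out a tumour gave ranges of -0.073 to 0.48 for Pdcd1, -0.0064 to 0.16 for Cd80, -0.73 to 0.34 for Lag3, -0.010 to 0.63 for Havcr2 and -0.44 to 0.33 for Tigit.

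Same-numbered tumours did not deviate together (r of -0.11, -0.09 and -0.02 for numbers 1, 2 and 3), and non-responsive replicate 1 was closest to responsive replicate 2 (r = 0.19). The labels do not say what the numbers mean, and so few pairs cannot decide whether tumours of the same number are paired. With the replicate block 0 genes, 0 of the 10 and 0 of the pathway genes were called. An unadjusted p under 0.05 was found for 3 of the 10 with the block (Cd274, Cd80 and Havcr2), against 5 without it. The share of all genes under this p with the block is not given here, so the 3 have no background beside them. The lowest counts, and so the widest counting error, were those of Pdcd1lg2 (10) and Tigit (11).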
